A study of Mus musculus with 6 samples.

Results

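MHC class I molecules carry peptides cut from the proteins of a cell to its surface, where CD8+ T cells and NK cells read them. The 9 genes described here encode the main parts of that route: the heavy chains H2-K1 and H2-D1, the nonclassical heavy chain H2-M3, the shared light chain B2m, the peptide transporter subunits Tap1 and Tap2, the loading chaperone Tapbp (tapasin), the peptide-trimming enzyme Erap1 and the transactivator Nlrc5. They were chosen by name, as the array spots whose gene name equals 1 of these symbols. All 9 were on the array, with 11 probes, among 34770 gene names in all. Proteasomes, in part with interferon-inducible catalytic subunits, make the peptides, TAP pumps them into the endoplasmic reticulum, ERAP1 shortens them, and tapasin helps load them onto the heavy chain and β2-microglobulin. NLRC5 is known to act at class I promoters, and interferons are known inducers of the whole route.

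The cells were murine bone marrow-derived macrophages (BMDMs) of wild type female C57BL/6 mice (6 to 8 weeks old by the labels), grown for 7 days in medium conditioned by L929 cells. One group was left untreated. A second group, LPS, received the TLR4 ligand lipopolysaccharide for 4 h, at 100 ng/ml by the series design, while the treatment label gives 100 ng/µl. The last group, LPS+USP7i, received 10 µM of the USP7 inhibitor HBX41108 for 30 min before the same LPS. Each group had 2 one-colour arrays, from independent experiments by the series design. The inhibitor alone was not measured, and no source used here says whether the other cells received its solvent. All 6 arrays lay on 1 slide and were scanned once, with the untreated arrays in row 1, the LPS arrays in row 2 and the LPS+USP7i arrays in row 4, so slide row and treatment cannot be told apart. Between 25002 and 27467 of the 59305 spots of an array were well above background. The 8 macrophage markers examined (Adgre1, Cd68, Csf1r, Itgam, Lyz2, Cd14, Fcgr1 and Mertk) were well above background on every array, as the label of the cells implies.

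Levels are quantile-normalized log2 signals, so a difference of 1 is a doubling. Every member probe was well above background on all 6 arrays and no spot was saturated. A gene stands by its brightest probe, and a gene is called where the adjusted p of limma's moderated test, over all 55680 probes tested, is under 0.05. The p-values measure the spread between these samples. In RNA from whole cultures, fewer cells of a kind and less RNA per cell cannot be told apart. LPS was set against untreated cells to ask which class I genes the stimulus moves, and LPS+USP7i against LPS to ask which of them respond to the inhibitor.

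After LPS, 5 of the 9 members rose (Nlrc5, Tap1, Tap2, H2-M3 and Tapbp) and 0 fell (0 also at an unadjusted p under 0.05). Over all gene names, 7.97% were called higher and 12.8% lower. Over the 15604 names well above background on every array, as all members were, 14.1% were called higher and 23.9% lower. The median difference of the members was 0.80, against 0.00 over all names and -0.18 over those 15604 names. With the inhibitor given before LPS, 3 members were lower than with LPS alone (Nlrc5, H2-M3 and Tap2) and 0 were higher (0 also unadjusted). Background shares in that comparison were 4.27% lower and 5.52% higher over all names. Over the names above background they were 7.43% lower and 9.74% higher. The members' median was -0.98, against 0.00 over all names and 0.05 over the names above background. Between LPS+USP7i and untreated cells 0 members were called by limma, with 1 higher (Tap1) and 0 lower at an unadjusted p under 0.05. There 6.16% of all names were called higher and 8.72% lower. Of the names above background, 10.8% were higher and 16.3% lower. All 3 comparisons share arrays, so their values are given side by side and are not independent of each other. With the replicate number as a block, H2-M3 lost both its calls, Tap2 lost its inhibitor call and Erap1 gained both. The labels do not say whether that number marks a shared experiment.

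**Figure D1:**
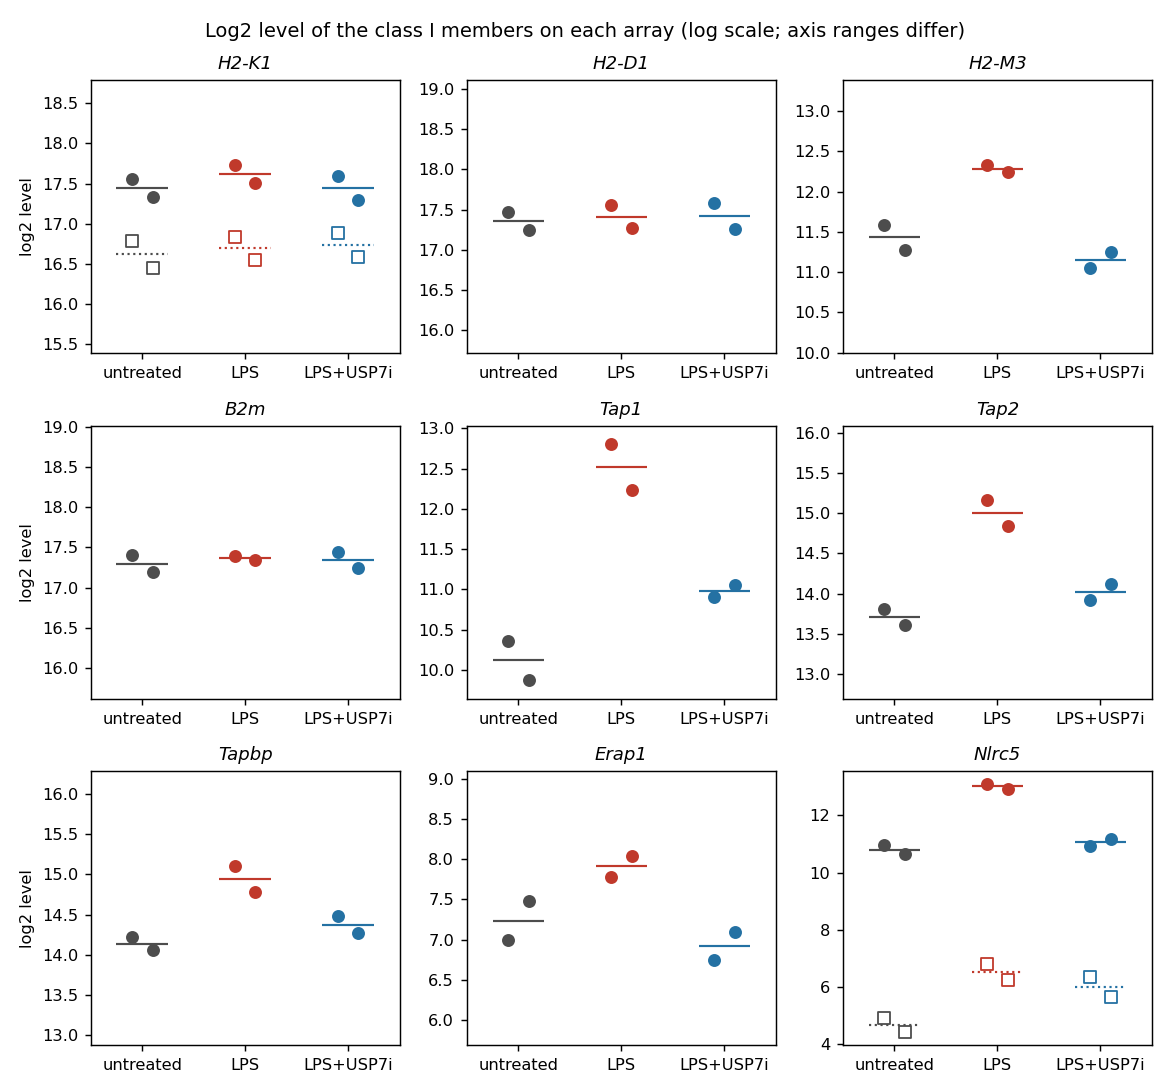
Log2 level (y axis, log scale, range differs between panels) of each member on the 6 arrays by group (x axis), with circles for the brightest probe, squares for the dimmer probe of H2-K1 and Nlrc5, and lines at the means of 2 arrays. Nlrc5, Tap1, Tap2, Tapbp and H2-M3 lie highest on both LPS arrays, while H2-K1, H2-D1 and B2m lie between 17.19 and 17.73 on all arrays by their brightest probes.

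Nlrc5 encodes the NOD-like receptor family protein that drives class I gene transcription. Its brighter probe (chr8:97051105-97051164 in build mm9) read 10.95 and 10.64 on the untreated arrays, 13.11 and 12.94 on the LPS arrays, and 10.92 and 11.19 on the LPS+USP7i arrays. Both LPS arrays lay above the other 4, and the untreated and LPS+USP7i arrays overlapped. The level was 4.68-fold higher after LPS (log2 difference 2.23, SE 0.16, adjusted p = 0.00534). It was 3.9-fold lower with the inhibitor than with LPS alone (log2 difference -1.96, SE 0.16, adjusted p = 0.0162). LPS+USP7i differed from untreated by 0.26 (95% interval -0.19 to 0.72, adjusted p = 0.486).

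A second, dim probe of Nlrc5 reads another part of the transcript. The probe starts at base 4062 of the transcript in the array's annotation, against 6877 for the brighter one. Its 60 bases cover 147 bases of genome (chr8:97030478-97030624, mm9) in the annotation, and its sequence is printed because the probes of this gene differed in the inhibitor comparison.
Nlrc5, dimmer probe: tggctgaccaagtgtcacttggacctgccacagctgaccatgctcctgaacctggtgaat
The dim probe read 4.92 and 4.40 (untreated), 6.80 and 6.24 (LPS) and 6.36 and 5.65 (LPS+USP7i). Here the LPS and LPS+USP7i arrays overlapped and both groups lay above the untreated arrays. The LPS difference was 1.86 (SE 0.37, adjusted p = 0.043). The inhibitor difference was -0.52 (95% interval -1.54 to 0.51, adjusted p = 0.551), where the brighter probe gave -1.96. LPS+USP7i stood 1.35 above untreated (adjusted p = 0.112). Processed signals of this probe were 28.94 to 90.15, against 1472 to 9156 for the brighter one, and the difference between the probes itself was not tested.

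The peptide transporter is a dimer of Tap1 and Tap2. The 10 spots of the Tap1 probe (chr17:34330854-34330913) averaged 10.36 and 9.87 (untreated), 12.80 and 12.24 (LPS) and 10.91 and 11.05 (LPS+USP7i). The 3 groups did not overlap, with LPS+USP7i between the other groups. Within an array these 10 spots had an SD of at most 0.10. Tap1 was 5.31-fold higher after LPS (log2 difference 2.41, SE 0.27, adjusted p = 0.0116). With the inhibitor it stood at -1.54 against LPS, a difference that missed the threshold (95% interval -2.29 to -0.79, adjusted p = 0.0524), and at 0.87 against untreated (adjusted p = 0.147).

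Tap2 (chr17:34353116-34353175) read 13.81 and 13.61 (untreated), 15.17 and 14.84 (LPS) and 13.92 and 14.12 (LPS+USP7i). Again both LPS arrays were highest and the 3 groups did not overlap. The gene rose 2.45-fold after LPS (log2 difference 1.29, SE 0.16, adjusted p = 0.0142) and was 1.98-fold lower with the inhibitor than with LPS alone (log2 difference -0.98, SE 0.16, adjusted p = 0.0449). Against untreated cells, LPS+USP7i differed by 0.31 (95% interval -0.14 to 0.75).

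Tapbp links the transporter to the empty heavy chain. Its probe (chr17:34065963-34066022) read 14.22 and 14.06 (untreated), 15.10 and 14.78 (LPS) and 14.48 and 14.27 (LPS+USP7i). These groups also stood apart, in the order untreated, LPS+USP7i, LPS. Tapbp rose 1.75-fold after LPS (log2 difference 0.80, SE 0.15, adjusted p = 0.0383), and its inhibitor difference of -0.56 did not pass (95% interval -0.98 to -0.14, adjusted p = 0.124).

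H2-M3 encodes a heavy chain that presents N-formylated peptides, such as those of bacteria. The probe (chr17:37411350-37411409) read 11.59 and 11.28 (untreated), 12.33 and 12.24 (LPS) and 11.05 and 11.25 (LPS+USP7i). The LPS arrays were highest and both LPS+USP7i arrays lay below both untreated arrays. H2-M3 rose 1.8-fold after LPS (log2 difference 0.84, SE 0.14, adjusted p = 0.0295) and was 2.2-fold lower with the inhibitor than with LPS alone (log2 difference -1.14, SE 0.14, adjusted p = 0.0284). The difference of -0.29 from untreated cells did not pass (95% interval -0.69 to 0.10, adjusted p = 0.34).

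Erap1 trims peptides in the endoplasmic reticulum to the length that fits the heavy chain. Its signal was dim, at 6.99 and 7.48 (untreated), 7.78 and 8.04 (LPS) and 6.74 and 7.09 (LPS+USP7i) (chr13:74828969-74829028). The LPS arrays were highest and the other groups overlapped. Neither the LPS difference of 0.68 (SE 0.24, adjusted p = 0.16) nor the 2-fold lower level with the inhibitor than with LPS (95% interval of the log2 difference -1.65 to -0.34, adjusted p = 0.0945) passed.

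H2-K1 and H2-D1, the classical heavy chains of these mice, and B2m, the light chain of all class I molecules, gave very bright spots on every array. H2-K1 (10 spots, chr17:34133055-34133114) read 17.56 and 17.33 (untreated), 17.73 and 17.51 (LPS) and 17.59 and 17.29 (LPS+USP7i), so the groups overlapped. Its LPS difference was 0.18 (95% interval -0.27 to 0.62, adjusted p = 0.582). A dimmer H2-K1 probe (chr17:34133984-34134043) gave 0.08, with an adjusted p of 0.92. H2-D1 (chr17:35403886-35403945) read 17.47 and 17.25, then 17.56 and 17.27, then 17.58 and 17.26 in the same order of groups, with an LPS difference of 0.06 (95% interval -0.44 to 0.55). B2m (2 spots, chr2:121978401-121978460) read 17.41 and 17.19, 17.39 and 17.35, and 17.44 and 17.24, with an LPS difference of 0.07 (95% interval -0.25 to 0.40). In these 3 genes replicate 1 was the higher array of every group, and the gap between replicates was in most groups larger than any difference between groups. The inhibitor differences were -0.18 for H2-K1, 0.01 for H2-D1 and -0.03 for B2m, and none passed.

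The values of these 3 bright probes depended on the scaling. Before normalization, the H2-K1 spots averaged 179900 and 193100 (untreated), 211700 and 212800 (LPS) and 163300 and 165600 (LPS+USP7i), with 99.9% of probes dimmer on average. Quantile normalization gives a rank the same value on every array. With each array scaled to its 75th percentile instead, the LPS difference was 0.74 for H2-K1, 0.58 for H2-D1 and 0.59 for B2m, of which H2-K1 and B2m were called (adjusted p of 0.0326 to 0.982 for H2-K1 and 0.04 to 0.981 for B2m over all alternatives). That scaling also moved the median of all gene names from 0.00 to 0.40. It called 21768 probes higher and 5669 lower after LPS, where quantile normalization called 3948 higher and 5947 lower. For LPS+USP7i against untreated it called 21937 higher and 4605 lower, against 3147 and 4086. The 75th percentile was itself higher on the untreated arrays (signals of 324.5 and 458.1) than on the LPS (241.1 and 288.4) and LPS+USP7i arrays (233.1 and 268.2).

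**Figure D2:**
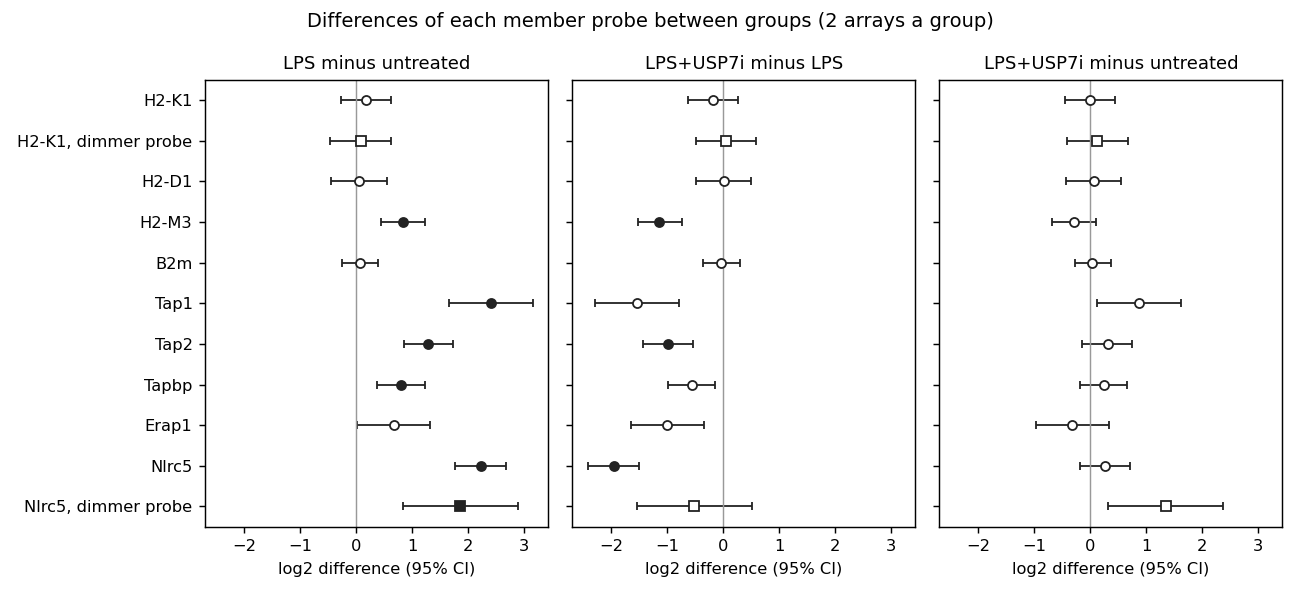
Log2 difference (x axis) of each member probe in the 3 comparisons, with the 95% confidence interval of limma's fit over 6 arrays, filled where the adjusted p was under 0.05 and square for the dimmer probes. Nlrc5 lies at 2.23 after LPS and at -1.96 for the inhibitor by its brighter probe, while the intervals of H2-K1, H2-D1 and B2m include 0 throughout.

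Calls of the members rested on few arrays. Of the 5 members higher after LPS, 2 were still called without untreated replicate 1, 1 without untreated replicate 2, 2 without LPS replicate 1, 3 without LPS replicate 2 and 3 without either of the LPS+USP7i arrays. Nlrc5 was called higher after LPS under all 14 alternatives run (differences of 2.07 to 2.52). The count of 3 members lower with the inhibitor fell to 0 when any array was left out, except LPS+USP7i replicate 2, without which it was 1, and to 0 in a fit of the LPS and LPS+USP7i arrays alone. In that fit, and in those without an untreated array, 0 probes of the whole array were called and the smallest adjusted p was 0.0561, with 6 members lower at an unadjusted p under 0.05. The inhibitor difference of Nlrc5 itself ranged from -2.19 to -1.83 over the alternatives, with adjusted p of 0.000646 to 0.065, and lost its call in 6 of 14. For the LPS difference, the call was lost in 1 of 14 alternatives by Tap1 (adjusted p of 0.000569 to 0.0579), in 3 by Tap2 (0.00255 to 0.0791), in 7 by Tapbp (0.00345 to 0.166) and in 9 by H2-M3 (0.00689 to 0.125). For the inhibitor, H2-M3 lost it in 8 (0.00419 to 0.115) and Tap2 in 9 (0.0145 to 0.15), while calls were gained by Tap1 in 5 (0.0066 to 0.178), by Erap1 in 3 (0.0281 to 0.273) and by Tapbp in 2 (0.0241 to 0.304). Erap1 also gained a call after LPS in 1 (0.031 to 0.427). These 14 are not all distinct, because a fit of the 2 groups compared gives the same values as leaving out 1 array of the remaining group, so each tally counts that fit 3 times.

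Upstream sequences are printed for 5 members, of which H2-M3 and Tap1 were called after LPS and H2-K1, B2m and Erap1 were not, while those of H2-D1 and Tapbp were searched but are not printed. RefSeq windows of build GRCm38.p6, from 250 bases before to 50 bases after a start site, were found for 7 members (H2-K1 with 2 overlapping windows) and not for Tap2 and Nlrc5. Both strands were searched for motifs known from class I promoters: the interferon-stimulated response element core (ISRE, GAAANNGAAA), the interferon gamma-activated site (GAS, TTCNNNGAA), the κB consensus, the Y box CCAAT and the site α core TGACG. The bases before the start site follow in the direction of the gene, with matches in capitals.
H2-K1, chr17:34000348-34000597, minus strand: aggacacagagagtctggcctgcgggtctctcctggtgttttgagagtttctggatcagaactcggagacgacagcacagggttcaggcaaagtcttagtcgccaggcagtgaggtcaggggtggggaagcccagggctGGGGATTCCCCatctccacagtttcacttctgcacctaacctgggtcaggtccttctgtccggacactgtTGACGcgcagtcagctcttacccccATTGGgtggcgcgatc
H2-M3, chr17:37269984-37270233, plus strand: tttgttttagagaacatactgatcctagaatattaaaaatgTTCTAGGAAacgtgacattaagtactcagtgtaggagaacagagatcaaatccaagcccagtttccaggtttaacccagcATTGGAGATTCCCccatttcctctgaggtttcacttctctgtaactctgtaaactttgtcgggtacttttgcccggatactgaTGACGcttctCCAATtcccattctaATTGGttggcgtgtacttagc
B2m, chr2:122147437-122147686, plus strand: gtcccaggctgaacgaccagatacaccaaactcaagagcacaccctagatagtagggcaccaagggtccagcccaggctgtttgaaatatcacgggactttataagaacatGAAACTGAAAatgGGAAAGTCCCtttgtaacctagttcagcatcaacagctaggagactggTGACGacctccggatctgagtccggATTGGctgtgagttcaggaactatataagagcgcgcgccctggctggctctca
Tap1, chr17:34187306-34187555, plus strand: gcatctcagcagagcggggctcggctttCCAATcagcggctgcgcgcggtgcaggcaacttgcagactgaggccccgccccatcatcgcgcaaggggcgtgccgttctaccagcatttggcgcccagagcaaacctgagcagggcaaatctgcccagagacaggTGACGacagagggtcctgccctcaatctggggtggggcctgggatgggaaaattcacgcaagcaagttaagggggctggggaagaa
Erap1, chr13:74639603-74639852, plus strand: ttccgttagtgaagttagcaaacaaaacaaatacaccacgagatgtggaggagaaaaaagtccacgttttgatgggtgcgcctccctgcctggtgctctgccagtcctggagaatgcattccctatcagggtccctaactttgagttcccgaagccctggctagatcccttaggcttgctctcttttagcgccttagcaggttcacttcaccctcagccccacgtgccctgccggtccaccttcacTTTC
In Erap1 the capitals at the end are the first part of a match that runs over the start site. Matches to the κB consensus were in the windows of 4 of the 7 members (H2-K1, H2-D1, H2-M3 and B2m), against 9.55% of all 27025 genes with a window. In H2-K1 and H2-D1 the consensus matched on both strands at 2 overlapping placements, and in H2-M3 it overlapped a Y box match by 2 bases. The site α core was in 5 (those 4 and Tap1), against 20.8% of all windows. The Y box was in 6 (all but Erap1), against 37.4% of all windows. For both motifs the share of genes with a match was higher than this share of windows. The ISRE core was found in B2m and Erap1, against 3.99% of genes, and the GAS in H2-M3, against 9.55%. Only exact matches to each motif were counted, so a window without a match may still hold a variant of the element. In H2-K1, H2-D1, H2-M3 and B2m a κB match lay upstream of a site α match, which in turn lay upstream of a Y box match, as the map of motif matches shows. Of those 4 genes H2-M3 was called after LPS and the other 3 were not, while Tap1 and Tapbp, with no κB consensus match in their windows, were called. A match is a description of letters, and no binding was measured.

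**Figure D3:**
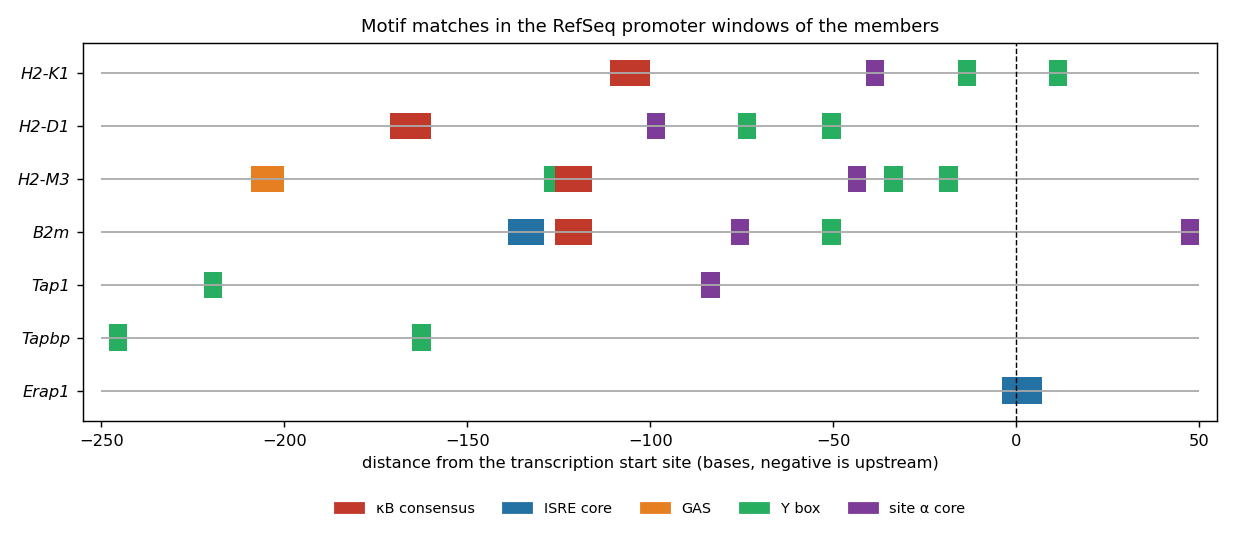
Motif matches on either strand (coloured boxes) by distance in bases from the RefSeq start site (x axis, dashed line at 0) for the 7 members with a promoter window, in rows. H2-K1, H2-D1, H2-M3 and B2m hold a κB consensus match upstream of a site α core match and of a Y box match, whereas Erap1 holds an ISRE core match over its start site.

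Tap1 and the immunoproteasome subunit gene Psmb9 lie head to head, with 225 bases between their start sites and 275 bases shared by their windows. Psmb9 read 13.69 and 13.30 (untreated), 14.74 and 14.47 (LPS) and 13.16 and 13.34 (LPS+USP7i). As for Tap1, both LPS arrays were highest. The LPS difference was 1.11 (SE 0.18, adjusted p = 0.0275) and the inhibitor difference -1.36 (SE 0.18, adjusted p = 0.0322). A dimmer Psmb9 probe was well above background on 0 of 2 untreated arrays and on all LPS and LPS+USP7i arrays. It gave -0.34 for the inhibitor against LPS, which was not called (adjusted p = 0.702), and was called higher in LPS+USP7i than in untreated cells (adjusted p = 0.0338), where the brighter probe gave -0.24 and was not called. The LPS difference of Psmb9 is named because of its position beside Tap1, after its value had been seen.

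Peptide supply and loading genes outside the members followed in part. Of 19 such genes on the array (20 listed, Hm13 not found by name), 9 were higher and 3 lower after LPS, with a median of 0.39. Of names well above background on every array, 14.1% were called higher and 23.9% lower there. The largest rises in the list were in Tapbpl, a tapasin relative (1.85), the aminopeptidases Lap3 (1.48) and Lnpep (1.46), and the immunoproteasome subunit Psmb10 (1.38). The 3 that fell were the intramembrane protease Sppl3 (-1.24) and the chaperones Canx (-0.44) and Calr (-0.35). With the inhibitor, 6 of the 19 were lower than with LPS alone and 1 was higher, with a median of -0.26. The shares of names above background were 7.43% lower and 9.74% higher. Tapbpl (-1.50), Psmb9 (-1.36), Psmb10 (-1.28) and the proteasome activator subunit Psme2 (-1.04) were lowest, and Sppl3 was higher (0.44). Against untreated cells, LPS+USP7i had Lap3 (0.72) and the chaperone Hspa5 (0.49) higher and Sppl3 (-0.80) lower, and 16 genes were not called. The shares there were 10.8% higher and 16.3% lower. A dimmer Sppl3 probe gave -0.24 after LPS and 0.39 for LPS+USP7i against untreated, neither called, and 0.63 for the inhibitor against LPS (adjusted p = 0.0329).

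Other class I heavy chain genes were read next. Of 21 on the array (24 listed, with H2-L, H2-Q9 and H2-T22 not found by name), 3 rose after LPS and 0 fell (0 also unadjusted), with a median of 0.11. Called higher in that comparison were 7.97% of all names and 14.1% of names well above background on every array. The 3 that rose were H2-Q8 (2.26), H2-T10 (1.73) and H2-T9 (1.56). A dimmer probe of H2-M2, named after its values had been seen, rose by 5.16 (adjusted p = 0.0031), was at -1.68 with the inhibitor against LPS (adjusted p = 0.0324) and stood 3.48 higher in LPS+USP7i than in untreated cells (adjusted p = 0.00697). The brightest H2-M2 probe, by which the gene is counted, gave 0.11, -0.10 and 0.01 and was not called. With the inhibitor H2-T24 was lower than with LPS alone (-1.16, and -1.04 by its other probe), and Cd1d1, which presents lipids, was higher (0.77). Of all names, 4.27% were called lower and 5.52% higher there. Between LPS+USP7i and untreated, H2-T10 (1.39), Cd1d2 (1.14), H2-T9 (1.03) and Cd1d1 (0.70) were higher and 0 genes lower (1 unadjusted). Genes of this family are close copies, so a probe may read more than 1 of them. Aligned without gaps to probes under other class I heavy chain names, the brightest H2-K1 probe matched at most 26 bases, the H2-D1 and H2-M3 probes 27 bases each, and the dimmer H2-K1 probe 39 of 54 bases with an H2-T23 probe. The transcripts of those genes were not searched, so these matches do not show whether a probe reads more than 1 gene.

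**Figure D4:**
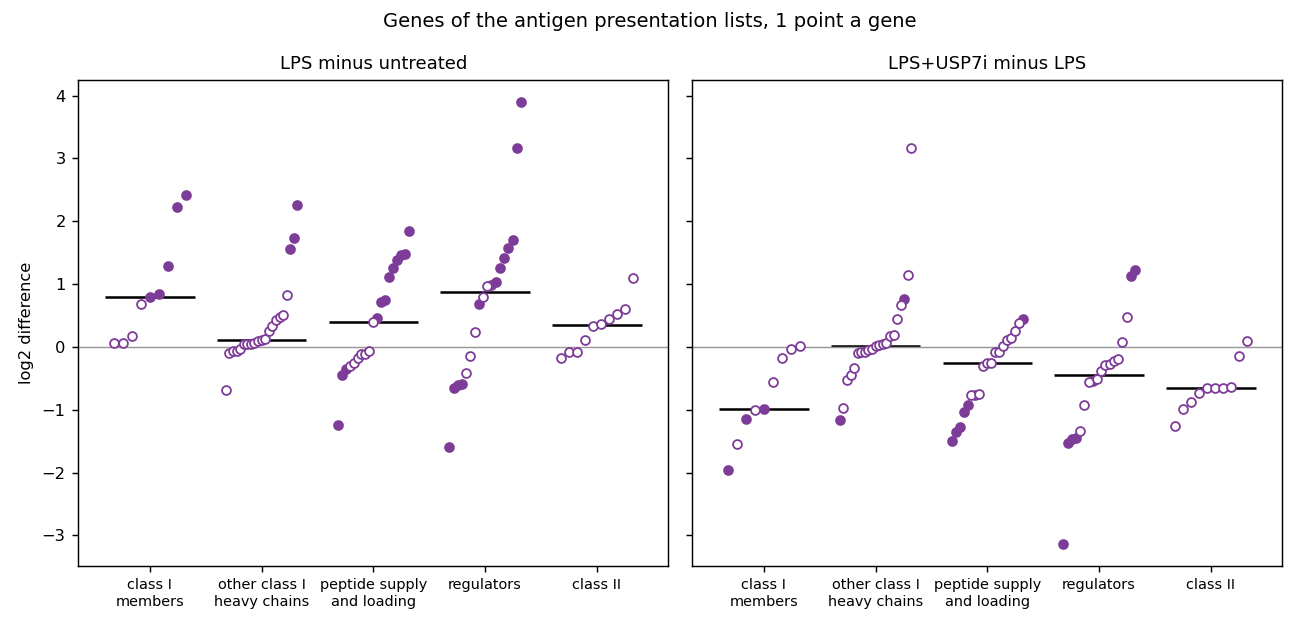
Log2 difference (y axis) of every listed gene on the array, 1 point a gene ordered by value within its list (x axis), after LPS (left) and with the inhibitor against LPS (right), filled where limma's adjusted p was under 0.05, with lines at list medians. The members' median is 0.80 on the left and -0.98 on the right, beside 0.36 and -0.66 for class II genes, of which 0 were called.

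Among 18 transcriptional regulators of class I genes, 9 rose and 4 fell after LPS, with a median of 0.88. Of names well above background on every array, 14.1% were called higher and 23.9% lower there. Irf1, an interferon regulatory factor, was at 12.92 and 12.41 (untreated), 16.58 and 16.55 (LPS) and 15.80 and 16.29 (LPS+USP7i). Its LPS difference was 3.90, and others that rose included the NF-κB subunit gene Nfkb1 (3.16) and Creb1 (1.58, with its other probes at 0.00 and -1.12, not called). Rfxap (-1.59), Atf1 (-0.65), Rfxank (-0.61) and Nfyc (-0.59), whose products belong to the complexes at class I and class II promoters, fell, while a dimmer Nfyc probe gave 0.19 and a dimmer Atf1 probe -0.40, neither called. Nfyb, whose product belongs to these complexes too, rose (0.69, adjusted p = 0.0267), as did both of its dimmer probes (0.87 and 0.73). Rfxap was not well above background on LPS replicate 1, so its difference after LPS is not exact. With the inhibitor, 5 of the 18 were lower than with LPS alone and 2 higher, against 7.43% and 9.74% of names above background. Irf8 read 14.17 and 14.11 (untreated), 15.25 and 15.87 (LPS) and 12.51 and 12.35 (LPS+USP7i), lowest on the inhibitor arrays (inhibitor difference -3.13, SE 0.23, adjusted p = 0.0144). Irf2 (-1.53) and Nfkb1 (-1.45) were also lower, and Atf1 (1.22) and Nfya (1.13) were higher. Irf1 was not called there by its brighter probe (-0.51, adjusted p = 0.371), while its dimmer probe was lower by -1.83 (adjusted p = 0.012). Against untreated cells, LPS+USP7i had 6 regulators higher, led by Irf1 (10.4-fold) and, as log2 differences, Nfkb1 (1.70), Creb1 (1.36) and Nfya (0.71), and 4 lower, Rfxap (-1.86), Irf8 (-1.71), Rfxank (-0.80) and Usf2 (-0.53). The shares of names above background were 10.8% higher and 16.3% lower there.

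Interferons are the known inducers of the class I route. Ifnb1 read 4.80 and 4.34 (untreated), 12.01 and 12.85 (LPS) and 12.87 and 12.52 (LPS+USP7i). It was called higher after LPS (adjusted p = 0.00317). The lower LPS array lay 7.21 above the untreated array that was well above background, and the other untreated array was not above background, so the difference is a lower bound. Its level with the inhibitor overlapped that with LPS alone (difference 0.26, 95% interval -0.73 to 1.26, adjusted p = 0.766). Of the 4 interferon receptor genes read, Ifnar1 (-0.97, adjusted p = 0.0397) and Ifngr2 (-0.41, adjusted p = 0.036) were lower with the inhibitor than with LPS alone, and Ifnar2 (-0.23) and Ifngr1 (-0.64) were not called. Both dimmer Ifnar1 probes were lower as well (-0.95 and -1.12). Against untreated cells, LPS+USP7i was lower in Ifngr2 (-0.73) and in the brightest Ifnar1 probe (-1.14), while the dimmer Ifnar1 probes gave 0.88 (called) and 0.51 (not called). After LPS, Ifngr2 fell (-0.32), and the Ifnar1 probes gave -0.17 (not called) and, for the dimmer pair, rises of 1.83 and 1.63. The receptors were named after their values had been seen. Signal of Ifng stayed near background throughout (2.12 to 2.56). Usp7, which encodes the target of the inhibitor, read 11.95 and 11.98, then 12.41 and 12.40, then 12.11 and 12.43, and was called in 0 of the 3 comparisons by limma (1 at an unadjusted p under 0.05, higher after LPS).

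Class II genes, read for comparison with class I, gave 0 calls of 10 in each comparison by limma. At an unadjusted p under 0.05, 1 was higher and 1 lower after LPS, 2 were lower with the inhibitor than with LPS, and 1 was lower in LPS+USP7i than in untreated cells. Their medians were 0.36, -0.66 and -0.24 in that order, so a difference in response between class I and class II genes is not shown by these counts. The genes whose pattern over the 6 arrays was most like the members' median were Cd47 (root mean square difference 0.063), Olfr1008 (0.069), Pnpla1 (0.073), Trim12a (0.075) and Dnajc13 (0.075), out of 11649 genes compared. Most like Nlrc5 were Spata13 (0.056), 1110002J07Rik (0.081) and Cacnb3 (0.092).

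Markers of the cell types a marrow culture could hold were read beside these results. Summed over the 8 macrophage markers, the linear signal was 729800 and 721300 (untreated), 725300 and 749800 (LPS) and 628400 and 587500 (LPS+USP7i), lowest on both inhibitor arrays. Cd14 made up 52500 and 57850, then 174200 and 181500, then 65080 and 78480 of these sums. Without Cd14, a split chosen after its values had been seen, they were 677300 and 663500 (untreated), 551200 and 568300 (LPS) and 563300 and 509000 (LPS+USP7i), so that LPS and LPS+USP7i overlapped below the untreated arrays. Csf1r was the brightest of them on 5 arrays and Cd68 on LPS+USP7i replicate 2. Cd14 rose after LPS (1.69) while Itgam fell (-0.66, with its other probes at -0.48 and 0.00, not called), and with the inhibitor Cd14 (-1.31) and Fcgr1 (-1.60) were lower than with LPS alone. The other 6 were not called there, with Itgam (0.31), Cd68 (0.16) and Lyz2 (0.15) on the higher side and Mertk (-1.20), Adgre1 (-0.57) and Csf1r (-0.22) on the lower side, while a dimmer Cd68 probe was called higher (0.43, adjusted p = 0.0332). After LPS that dimmer probe was called lower (-0.43, adjusted p = 0.0185), and the brightest Cd68 probe gave -0.44, not called. Fcgr1 was also lower in LPS+USP7i than in untreated cells (-1.26). Of 7 T and NK cell markers, 2 to 4 were well above background on an array (sum 1797 to 2395, Cd4 brightest), and 0 were called in any comparison (0 unadjusted). The 4 B cell markers, Cd79b brightest, summed to 1044 and 657.3 (untreated), 1136 and 517.6 (LPS) and 685.2 and 280.8 (LPS+USP7i), lower in replicate 2 of every group. Their median difference was 0.79 after LPS and -0.80 with the inhibitor against LPS, and their part in the result was not tested. Of 5 dendritic cell markers, 1 or 2 were above background, with Siglech brightest in sums of 45110 and 37940 (untreated), 25300 and 24790 (LPS) and 51500 and 34730 (LPS+USP7i), lowest on both LPS arrays. Siglech stood at -0.73 after LPS (adjusted p = 0.122) and 0.75 with the inhibitor against LPS (adjusted p = 0.149), not called but with unadjusted p of 0.031 and 0.0278. Zbtb46 was well above background on 0 of 2 untreated arrays and on all LPS and LPS+USP7i arrays, and was called higher in both groups than in untreated cells. The 5 neutrophil markers summed to 4114 to 4701 with Elane brightest, and the 4 fibroblast markers to 41.76 to 88.16, with at most 1 above background. In the B cell, neutrophil and fibroblast lists 0 genes were called in any comparison. At an unadjusted p under 0.05, 1 B cell marker was lower in LPS+USP7i than in untreated cells, and among neutrophil markers 1 was lower after LPS and 1 higher with the inhibitor. Whether the marker values that moved bear on the class I values was not tested.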

How the data were processed

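Total RNA of 6 BMDM cultures was hybridised to one-colour mouse arrays. The authors deposited scanner intensity values (Agilent Feature Extraction 10.7.3.1, per the file headers) and a table of log2 values. The submitters' processing notes name limma. Processed signals were taken to log2 and quantile-normalized, control and outlier spots were left out, and spots of a probe were averaged. All 3 groups were fitted together with limma 3.58.1 (R 4.3.3, lmFit and eBayes, 3 residual degrees of freedom) and p-values adjusted by Benjamini-Hochberg over 55680 probes. Fits were tested on simulated data. Probe names came from the files and, for 22212 of 34770 names, matched RefSeq. Promoter sequences are from RefSeq (GRCm38.p6), and probe positions are in mm9. From each list, up to 4 called genes per direction with the largest difference, groups apart and a probe above background on both arrays of a group were named. Alternatives covered scaling, background correction, the deposited log2 table, dim and outlier spots, the variance prior, the arrays fitted, the replicate number and the rule for several probes. Members and lists were chosen with earlier results of these data known.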

Additional observations from a re-analysis of the deposited data

How the results depend on the processing

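Of 378 recomputed member differences, 301 kept their direction and their side of the threshold, 43 lost a call, 16 gained one and 18 changed sign, the last all in H2-K1, H2-D1 and B2m, whose differences were small. With 75th percentile scaling the members' median was 1.14 after LPS and 0.46 for LPS+USP7i against untreated (median of all names 0.40 and 0.44), 7 members were higher after LPS, 5 were lower with the inhibitor than with LPS and 1 was higher than in untreated cells, H2-D1 turned to -0.09 for the inhibitor and H2-K1 to 0.44 for LPS+USP7i against untreated. With normexp (offset 50) 6 members were lower with the inhibitor (median -0.69) and 1 was higher in LPS+USP7i than in untreated cells, H2-D1 turned to -0.02 after LPS and B2m to 0.02 for the inhibitor. The deposited log2 table gave -0.03 and 0.02 for the same values. Without dim probes, 5 members were lower with the inhibitor and 1 was higher in LPS+USP7i than in untreated cells. In fits of the 2 groups compared, 3 members were higher after LPS and 0 lower with the inhibitor (6 unadjusted). With a gene called where most of its probes were, 5 were higher after LPS and 2 lower with the inhibitor. The cause of these shifts was not tested.

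Leaving out 1 array at a time gave 1 to 3 members higher after LPS (median 0.72 to 0.89), 0 to 1 lower with the inhibitor, and a median of -0.06 to 0.17 for LPS+USP7i against untreated. Over these fits the values of H2-D1 ranged from -0.09 to 0.20 after LPS, -0.16 to 0.17 for the inhibitor and -0.10 to 0.22 for LPS+USP7i against untreated. Those of B2m ranged from -0.04 to 0.18, -0.13 to 0.07 and -0.07 to 0.16 in the same order, and those of H2-K1 from -0.15 to 0.15 for LPS+USP7i against untreated. Leaving out an array gave 0 to 2855 probes higher and 0 to 1703 lower with the inhibitor, and 1632 to 3696 higher and 2385 to 5481 lower after LPS. Probes called on the whole array numbered 2595 higher and 2109 lower with the inhibitor, against 0 and 0 in the fit of its 2 groups, 3239 lower with normexp and 3287 lower without dim probes. A group left with 1 array was assumed to vary like the others.

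The labels number the replicates 1 and 2 in every group but do not say that a number marks a shared experiment. Differences between replicates correlated between groups (0.398 to 0.468 over 20705 probes), and the number is also the slide column. With the number as a replicate block, 5 members were higher after LPS and 2 lower with the inhibitor, against 5 and 3 without it, but not the same genes. After LPS H2-M3 lost its call (adjusted p = 0.0571) and Erap1 gained one (0.031). With the inhibitor H2-M3 (0.0584) and Tap2 (0.0745) lost theirs, Erap1 gained one (0.0402), and of the 3 only Nlrc5 kept its call (0.042). Called probes changed from 3948 to 4174 higher and from 5947 to 6238 lower after LPS, and from 2595 to 1947 higher and 2109 to 1596 lower with the inhibitor. Signal over background limits Erap1 (processed signals 90.86 to 271) and the dim probe of Nlrc5.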
